A study of Mus musculus with 8 samples.

Results

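The Tribbles pseudokinases Trib1, Trib2 and Trib3 were followed together with Akt1 and Akt2, the AKT kinases that TRIB3 binds, in RNA from mouse pancreatic islets. The 5 genes were chosen by name, and all 5 were found among the 55414 gene entries of each count table and passed the filter on low counts that left 20509 tested genes. Islets, the endocrine clusters of the pancreas, came from C57BL/6 mice at 5 weeks of age. There were 8 libraries in 2 groups of 4. The TG group had the genotype Ins2 cre(+/-) with ATF4 TG(+/-), that is 1 copy of a Cre driver named after the insulin 2 gene and 1 copy of an ATF4 transgene. The WT group was Ins2 cre(-/-) with ATF4 TG(+/-), so the controls carried the transgene too and lacked only the driver. No group carried the driver without the transgene, and an effect of Cre itself cannot be told apart from one of ATF4. The series title names endoplasmic reticulum stress and expression mediated by ATF4, and the comparison asks which of these transcripts differ when the driver is present.

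Tribbles proteins have the fold of a protein kinase but little or no catalytic activity, and they work as scaffolds. Their tails carry docking sites for the ubiquitin ligase COP1 and for the kinase MEK1, and TRIB1 and TRIB2 bring the transcription factor C/EBP-alpha to COP1 for breakdown. TRIB3 is a known target of the stress factors ATF4 and CHOP, can bind ATF4 and CHOP in turn, and has been described as a brake on AKT, the kinase that carries insulin and growth factor signals.

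Promoter sequences are shown first because Trib3 is the member with the largest change and ATF4 with its C/EBP partners binds a composite element whose core is written here as TGATGNAA. RefSeq windows of 300 bases (250 before to 50 after the annotated start, GRCm38.p6) were held for 4 of the 5 genes, Trib2, Trib3, Akt1 and Akt2. The read counts were made on another build, mm39, and the windows were matched by gene symbol. The Trib3 window, chr2:152344011-152344310 on the minus strand, holds 1 match, on the strand opposite to the gene and starting at base 15 after the start site. The match is in capitals in the first sequence. The Trib2 window, chr12:15816736-15817035 on the minus strand, holds none on either strand and is shown for comparison.
Trib3: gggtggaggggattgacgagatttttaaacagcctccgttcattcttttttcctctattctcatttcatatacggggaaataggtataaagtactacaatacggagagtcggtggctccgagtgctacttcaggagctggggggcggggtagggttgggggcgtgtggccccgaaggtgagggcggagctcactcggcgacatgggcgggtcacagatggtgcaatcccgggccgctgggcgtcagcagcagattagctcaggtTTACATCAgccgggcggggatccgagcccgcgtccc
Trib2: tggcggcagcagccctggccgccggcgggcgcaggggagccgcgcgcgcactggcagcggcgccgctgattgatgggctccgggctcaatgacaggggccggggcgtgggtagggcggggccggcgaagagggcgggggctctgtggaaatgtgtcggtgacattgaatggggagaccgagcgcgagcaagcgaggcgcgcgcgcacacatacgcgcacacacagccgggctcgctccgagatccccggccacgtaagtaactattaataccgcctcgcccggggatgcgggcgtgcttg

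Of 27025 genes with such windows, 1219 (4.51%) held the TGATGNAA core on either strand in at least 1 window. Of the 19 ATF4 and CHOP targets with a window, from a list of 20 described further on, 8 held it (42.1%). These targets are known ones, some of them known through this element, so the share is a description of the list. The 30-base stretches around the cores are shown to set the Trib3 element beside those of the targets, each read in the direction in which the core, in capitals, reads TGATGNAA. The Trib3 stretch is chr2:152344028-152344057, plus strand. On the plus strand lie those of Atf3 (chr1:191183425-191183454), Nupr1 (chr7:126625562-126625591), Fgf21 (chr7:45615611-45615640) and the first of Slc7a11 (chr3:50443642-50443671). On the minus strand lie those of Chac1 (chr2:119351038-119351067), the second of Slc7a11 (chr3:50443661-50443690), Vldlr (chr19:27216809-27216838), Herpud1 (chr8:94386306-94386335), Asns (chr6:7693214-7693243) and Akt2 (chr7:27605701-27605730). Akt2 has 4 annotated windows, of which 1, a downstream start at chr7:27605547-27605846, held the core 85 bases before the start. Neither Akt1 window held it. A match is a string of letters and was not tested as a binding site.
Trib3: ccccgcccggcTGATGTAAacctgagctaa
Chac1: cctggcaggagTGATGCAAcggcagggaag
Atf3: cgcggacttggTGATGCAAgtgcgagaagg
Slc7a11, first: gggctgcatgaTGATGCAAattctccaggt
Slc7a11, second: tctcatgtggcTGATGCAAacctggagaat
Nupr1: caagccctgtcTGATGCAAtctggcccttt
Fgf21: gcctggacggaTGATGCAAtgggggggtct
Vldlr: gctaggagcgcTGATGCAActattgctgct
Herpud1: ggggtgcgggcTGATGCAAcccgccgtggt
Asns: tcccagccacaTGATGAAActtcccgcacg
Akt2, downstream start: cagtcctgtggTGATGAAAttccaggcagc

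The libraries held 16521087 to 22499999 counts assigned to genes, and levels are given as CPM, read counts scaled to library depth by the TMM method. The labels do not say whether each sample is a different animal or pool, so p-values measure the spread between these samples, which may be technical. Of 20509 genes tested, 4129 (20.1%) were called at an adjusted p under 0.05 (edgeR quasi-likelihood test, two-sided). Atf4 itself lay between 234 and 278 CPM in TG and between 326 and 378 CPM in WT, and since transgene reads need not be assigned to that gene, it does not check the labels. All 10 beta-cell markers examined were detected and all 10 were lower in TG, with a summed level of 50093 to 64198 CPM against 103120 to 123756 CPM. All 10 endothelial markers (1251 to 1300 CPM summed in TG, 529 to 906 in WT), 6 of 10 mural and fibroblast markers (3348 to 6485 against 844 to 2798) and 7 of 10 macrophage markers (181 to 479 against 102 to 168) were higher in TG. No marker of these 4 lists was at 0 in all libraries. Acinar markers summed to 39286 CPM in TG replicate 1 and to 1233 to 12134 CPM in the other 7 libraries. In whole islets, fewer cells of a type and less RNA per cell cannot be told apart.

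Of the 5 genes, 2 were called higher in TG (Trib3 and Trib2) and 0 lower, where 20.1% of all genes tested were called. At an unadjusted p under 0.05 the number lower was also 0, as it was with DESeq2 and limma-voom. The same 2 were those whose groups did not overlap, which held for 22.6% of all genes tested, 12.6% with TG higher and 9.94% with TG lower. Trib3 (ENSMUSG00000032715) lay at 74.7, 99.7, 82.8 and 62.2 CPM in TG replicates 1 to 4 and at 1.84, 1.47, 1.94 and 2.44 CPM in WT replicates 1 to 4. The lowest TG library thus stood far above the highest WT library. In reads, 32 to 42 fell on Trib3 in each WT library and 1092 to 2244 in each TG library. Trib3 rose 41.8-fold (95% interval 32.0 to 54.7; log2 fold change 5.39, SE 0.18, adjusted p = 2.88e-11, edgeR). By size of the log2 fold change it was number 14 from the top among the 20509 genes. The rise was 5.44 with vascular and stromal markers as a covariate and 4.79 with macrophage markers, the latter the lowest value of all 21 alternative settings, and the call held in each. The standard errors in these fits were 0.43 and 0.27.

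**Figure D1:**
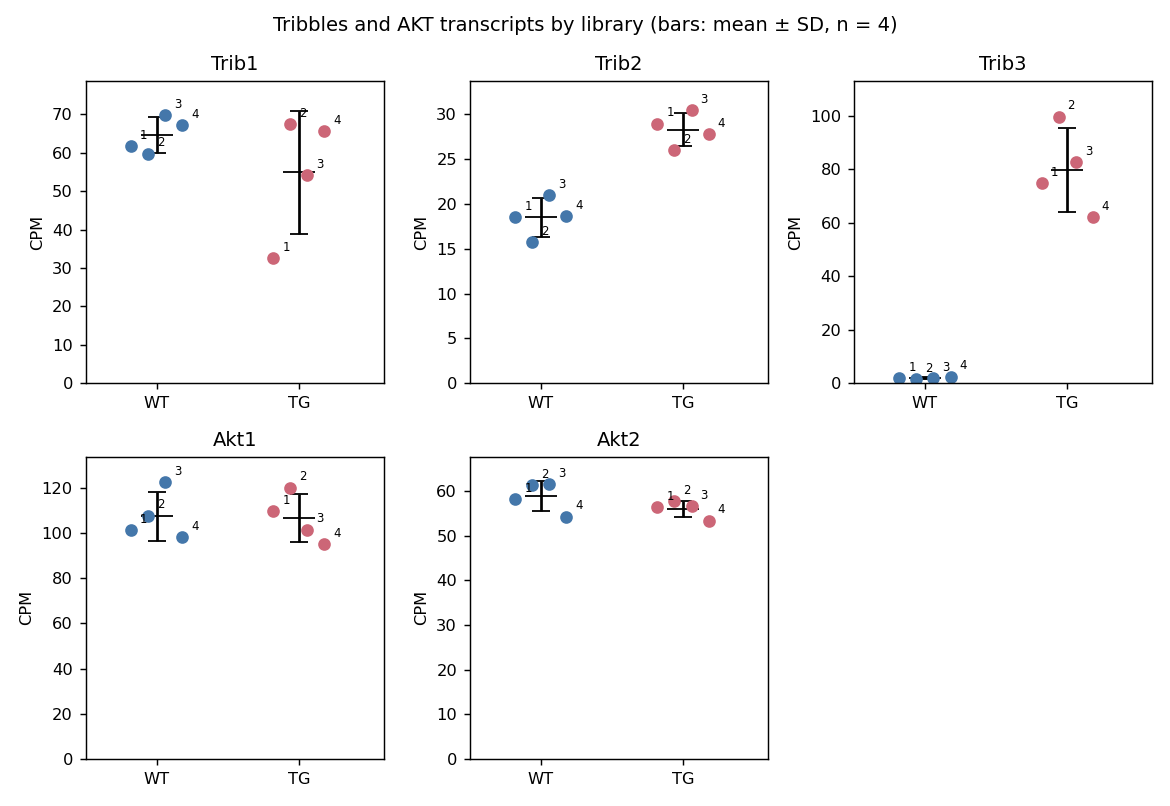
CPM of Trib1, Trib2, Trib3, Akt1 and Akt2 in each of the 8 libraries, with replicate numbers beside the points and bars for the mean and SD of 4. Trib3 and Trib2 have no overlap between groups, Trib1 is at 32.5 CPM in TG replicate 1, and Akt1 overlaps between the groups. The groups of Akt2 overlap only through WT replicate 4 (54.3 CPM).

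Trib2 (ENSMUSG00000020601), the family member best known for bringing C/EBP-alpha to COP1 in leukaemia, was at 28.9, 26.0, 30.5 and 27.7 CPM in TG and at 18.6, 15.8, 21.0 and 18.6 CPM in WT. All TG libraries exceeded all WT libraries, by a margin of 26.0 against 21.0 CPM at the closest. Trib2 rose 1.53-fold (95% interval 1.29 to 1.82; log2 fold change 0.61, SE 0.12, adjusted p = 0.00185, edgeR). Its call was held without each single library, with log2 fold changes of 0.54 to 0.68. It was lost with vascular and stromal markers as a covariate (0.25, SE 0.24, adjusted p = 0.808) and with macrophage markers as a covariate (0.41, SE 0.23, adjusted p = 0.51), 2 marker groups whose sums, given above, do not overlap between TG and WT. Their part in the rise of Trib2 was not tested beyond these fits. In these 2 fits 315 and 299 of the 20509 genes tested were called, against 4129 without a covariate. The 3 genes whose profile over the 8 libraries was nearest to that of Trib2 were Amotl1, Lims1 and Map3k20, with root mean square differences of 0.068, 0.078 and 0.080 on the log2 scale. These were also called higher (0.58, 0.54 and 0.73), and each lost its call with either covariate. They were picked for their likeness to Trib2 in these same libraries, so a like result was built in and supports nothing.

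Trib1 (ENSMUSG00000032501), which is known for its part in C/EBP-alpha turnover in liver and myeloid cells, was not called. It was at 32.5, 67.4, 54.1 and 65.5 CPM in TG and at 61.7, 59.8, 69.8 and 67.3 CPM in WT. The groups overlapped, and TG replicate 1 was the lowest of all 8. That library also had the highest acinar sum, the largest share of reads that matched no counted feature (31.5%) and the most genes with a count (39510). Which of these, if any, goes with the low value was not tested. The log2 fold change was −0.24 (95% interval −0.67 to 0.20, adjusted p = 0.461, edgeR). Without TG replicate 1 it was −0.05 (SE 0.10, adjusted p = 0.839), and with acinar markers as a covariate −0.12 (adjusted p = 0.757). The genes nearest in profile were Per1, a clock gene, Ubr4, a ubiquitin ligase, and Sez6l2, a membrane protein, with root mean square differences of 0.085, 0.11 and 0.11 on the log2 scale. None of the 3 was called, which their choice by likeness to Trib1 made likely and which supports nothing.

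The 3 Tribbles genes thus changed to different extents, which was tested with the log2 ratio of 2 genes' counts within each library, a value that does not depend on scaling. The ratio of Trib3 to Trib1 was 0.58 ± 0.52 (SD, n = 4) in TG and −5.07 ± 0.23 (SD, n = 4) in WT. The difference, 5.65, had an exact permutation p = 0.0286 (two-sided, adjusted p = 0.0381 over 4 pairs), the smallest that 70 arrangements allow. Trib3 against Trib2 differed by 4.74 between the groups, with an exact 97.1% interval of 4.08 to 5.36 and the same exact p-values. Trib1 against Trib2 was 0.17, 1.37, 0.83 and 1.24 in TG and 1.73, 1.92, 1.73 and 1.85 in WT, so the lowest WT ratio lay above the highest TG ratio. This difference was −0.91 (exact interval −1.76 to −0.36, again exact permutation p = 0.0286 and adjusted p = 0.0381). Without TG replicate 1, whose ratio was farthest from the rest, it was −0.66. Leaving out any 1 of the 4 WT libraries put each adjusted p of these 3 differences above 0.05, with values of 5.57 to 5.75, 4.69 to 4.86 and −0.93 to −0.87 and adjusted exact p-values of 0.0571, 0.0571 and 0.0762 over the 4 pairs, while leaving out a TG library kept them at 0.0381. Without a WT library the exact p of both Trib3 differences was still 0.0286, the smallest possible with 1 library fewer. Their adjusted p rose because the exact p of Trib1 against Trib2 was then 0.0571.

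**Figure D2:**
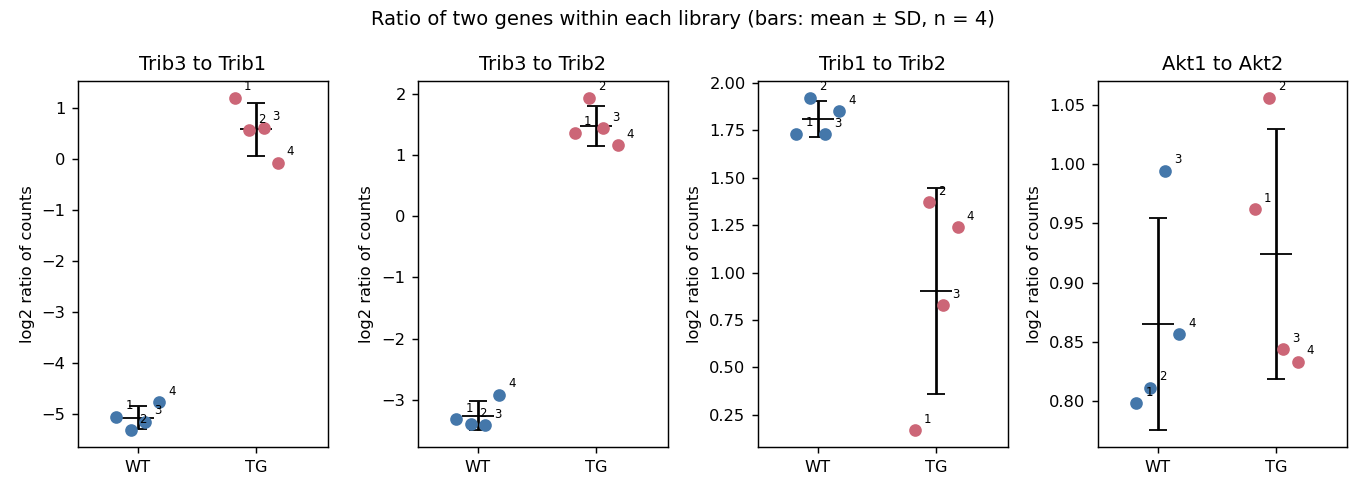
Log2 ratio of the counts of 2 genes within each library for 4 pairs, with replicate numbers and bars for mean and SD of 4. The 3 Tribbles pairs separate the groups, and the ratio of Akt1 to Akt2 overlaps between them.

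Levels can be set beside each other only per length, here as CPM per kb of exon with lengths from GENCODE M21. In WT the order from the top was Akt1 at 26.2 ± 2.63, Trib1 at 10.3 ± 0.748, Akt2 at 8.25 ± 0.477, Trib2 at 4.26 ± 0.497 and Trib3 at 0.906 ± 0.188 (mean ± SD, n = 4 each). Each gene's WT libraries lay clear of those of its neighbours in this order. In TG, Trib3 had the highest mean of the 5, 37.6 ± 7.40, and Akt1 followed at 26.0 ± 2.63, with the lowest Trib3 library (29.28) level with the highest Akt1 library (29.30). Next came Trib1 at 8.78 ± 2.57, Akt2 at 7.85 ± 0.260 and Trib2 at 6.53 ± 0.435, where the libraries of Trib1 (5.20 to 10.8) overlapped those of Akt2 and Trib2. Trib3 also made up most of the Tribbles transcripts there. Its share of the length-scaled sum of the 3 genes was 74.8%, 73.7%, 71.3% and 63.4% in TG replicates 1 to 4 and 4.99% to 7.09% in WT. Trib1 held the largest share in WT, 66.7% ± 1.43 (SD, n = 4), and 16.6% ± 4.79 in TG. These shares were computed after the values had been seen and carry no test.

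**Figure D3:**
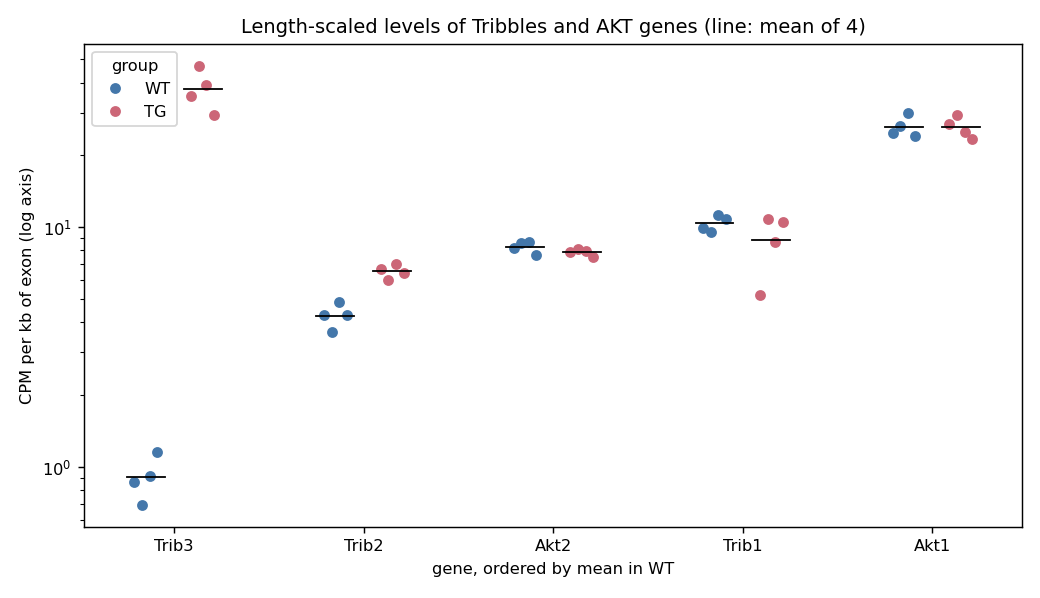
CPM per kb of exon, on a log axis, of the 3 Tribbles genes, Akt1 and Akt2, ordered by their WT mean, with 1 point per library and a line at the mean of 4. Trib3 goes from the lowest mean of the 5 in WT (0.906) to the highest in TG (37.6, with Akt1 at 26.0).

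Akt1 (ENSMUSG00000001729), the broadly expressed AKT kinase, was at 109.7, 120.1, 101.5 and 95.1 CPM in TG and at 101.3, 107.7, 122.5 and 98.2 CPM in WT. The groups overlapped throughout. Its log2 fold change was −0.01 with a 95% interval of −0.22 to 0.20 (adjusted p = 0.958, edgeR), which leaves room for a fall to 0.86-fold or a rise to 1.15-fold. Akt2 (ENSMUSG00000004056), the form tied to glucose uptake in insulin target tissues, was at 56.3, 57.7, 56.6 and 53.4 CPM in TG and at 58.2, 61.3, 61.5 and 54.3 CPM in WT. Its log2 fold change was −0.07 (95% interval −0.25 to 0.11, adjusted p = 0.625). The log2 ratio of Akt1 to Akt2 was 0.92 ± 0.11 in TG and 0.87 ± 0.09 in WT (SD, n = 4 each), a difference of 0.06 with an exact 97.1% interval of −0.16 to 0.26 (exact permutation p = 0.4, adjusted p = 0.4). Neither gene was called in any of the 21 alternative settings. RNA counts do not show the phosphorylation of AKT, which is what TRIB3 has been described to hold down.

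Of 11 genes of the COP1 ligase, its C/EBP substrates and the Tribbles relative Stk40, 3 were higher and 0 lower, with a median log2 fold change of −0.0079, where 12.1% of all genes tested were called higher and 8.06% lower at a median of −0.0019. Stk40, a pseudokinase related to Tribbles, was at 20.2, 22.9, 23.3 and 23.3 CPM in TG and at 13.7, 15.3, 13.7 and 14.0 CPM in WT and rose by 0.66 on the log2 scale (SE 0.12, adjusted p = 0.000998). The C/EBP genes Cebpa (0.98, from 2.83 to 5.59 CPM) and Cebpb (1.05, from 6.72 to 14.0 CPM) rose as well. Cop1 was at 69.3 ± 2.28 CPM in TG and 67.3 ± 4.51 CPM in WT (SD, n = 4 each), with a 95% interval of −0.14 to 0.22 for its log2 fold change of 0.04. The other ligase parts (Det1, Dda1, Ddb1, Cul4a, Cul4b and Rbx1) and Cebpd were not called. With vascular and stromal or with macrophage markers as a covariate 0 of the 11 were called, and 2 had an unadjusted p under 0.05 in each fit. Few genes of any kind were called in these fits, 315 and 299 of the 20509 tested, so the lost calls are not particular to this list. The log2 fold change of Stk40 was then 0.82 and 0.70 (SE 0.26 and 0.24, adjusted p = 0.182 and 0.22), while Cebpb stood at 0.02 and 0.14 and Cebpa at −0.23 and 0.05. Cebpa also missed the threshold without TG 1 (0.88), TG 3 (0.88), WT 2 (0.80) or WT 4 (0.88), and with the acinar covariate (0.80).

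Of 13 other reported partners of Tribbles proteins, 2 were higher and 1 lower, with a median of 0.14, where 12.1% and 8.06% of all genes tested were. Bmpr2, a receptor for bone morphogenetic proteins whose tail binds TRIB3, rose by 0.74 (SE 0.095, adjusted p = 7.82e-05), from 68.0 ± 5.11 to 113 ± 11.6 CPM (SD, n = 4 each). Acacb, an acetyl-CoA carboxylase, rose by 0.95 (adjusted p = 0.00283), and Atf4 was the gene called lower (−0.43, adjusted p = 0.00226). Ddit3, which encodes CHOP, was at 36.4 to 38.7 CPM in TG and 30.5 to 35.3 CPM in WT, with no overlap but a log2 fold change of 0.22 that was not called (adjusted p = 0.126). The kinase genes Map2k1 (0.05), Map2k4 (0.14), Map2k7 (−0.17) and Map3k11 (0.15) were not called. With the vascular and stromal covariate 0 of the 13 were called (3 at an unadjusted p under 0.05), and with the macrophage covariate Bmpr2 was called (0.82, adjusted p = 0.0448). Of all 20509 genes tested, 315 and 299 were called in these fits.

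Known targets of ATF4 and CHOP, the class to which Trib3 belongs, rose almost without exception. Of a list of 20, with Trib3 not among them, 19 were called higher and 0 lower, with a median log2 fold change of 2.81. Of all genes tested, 12.1% were called higher and 8.06% lower. The 4 with the lowest adjusted p were Slc7a11, the cystine carrier (5.98), Phgdh, the first enzyme of serine synthesis (3.33), Eif4ebp1, a repressor of translation (3.16), and Asns, asparagine synthetase (2.46). The change of Trib3, 5.39, lay below those of Slc7a11, Fgf21 (5.67) and Gdf15 (5.48) and above the other 17, and these differences were not tested. Fgf21 (0 to 0.628 CPM) and Gdf15 (0.138 to 0.648 CPM) had few or no reads in WT and passed the filter through TG. Their SE were 0.66 and 0.31, against 0.18 for Trib3, so their order relative to Trib3 is not settled. Ddit4 (0.41) was the target not called. With either covariate 10 of the 20 were called higher, and Slc7a11, Phgdh, Eif4ebp1 and Asns were among them in both. Of all 20509 genes tested, 123 were called higher with the vascular and stromal and 126 with the macrophage covariate. The list was drawn up with earlier results of these data known, so its count is no independent evidence.

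**Figure D4:**
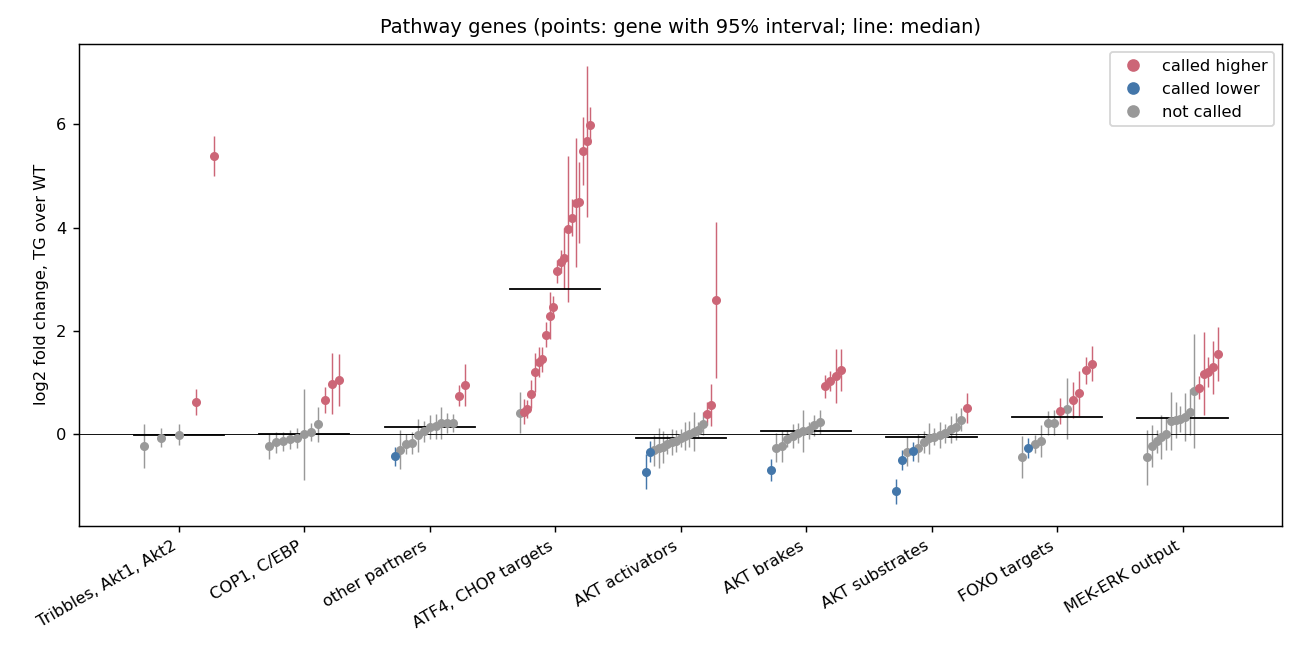
Log2 fold change, TG over WT, of each tested gene of 9 groups, the 5 genes of this account and 8 lists, with 95% intervals, a line at the group median and colour by call. ATF4 and CHOP targets have a median of 2.81, and the medians of the other lists lie between −0.086 and 0.34.

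Of 17 activators of AKT, 3 were higher and 2 lower (median −0.086), where 12.1% and 8.06% of all genes tested were. Insr, the insulin receptor, was at 92.3 to 112 CPM in TG and 69.1 to 91.4 CPM in WT (log2 fold change 0.39, adjusted p = 0.0126). Irs1, an adaptor of that receptor, fell from 19.6 ± 3.77 to 11.8 ± 1.51 CPM (SD, n = 4 each; −0.73, adjusted p = 0.00391), and it was also called in the fit with vascular and stromal markers (−1.40, adjusted p = 0.00883). Pdpk1, the kinase that phosphorylates AKT in its activation loop, fell by 0.34 on the log2 scale (adjusted p = 0.0207). Prr5, a part of the mTORC2 complex, rose by 2.60 at a low level (1.79 against 0.308 CPM), and Pik3cd, a catalytic subunit of phosphoinositide 3-kinase found mainly in white blood cells, by 0.57 (adjusted p = 0.0498). Prr5 had no reads in WT replicate 2 and at most 0.855 CPM in WT. It passed the filter through TG, where it is high, and is among the 3 counted as higher. The call was lost for Insr without TG 3 (0.32) or WT 1 (0.33), for Pdpk1 without TG 1 (−0.31), WT 2 (−0.31) or WT 4 (−0.28), and for Prr5 without TG 3 (2.34) or WT 1 (2.44). That of Pik3cd was lost without TG 1 (0.56), TG 2 (0.56), TG 3 (0.47), WT 1 (0.56), WT 2 (0.47) or WT 4 (0.52), and also with upper-quartile scaling (0.53), with no filter (0.55) or with the acinar covariate (0.50). The acinar covariate ended the call of Pdpk1 too (−0.23). With the macrophage covariate 0 of the 17 were called, and 2 had an unadjusted p under 0.05, where 299 of all 20509 genes tested were called. With the vascular and stromal and the macrophage covariate, in this order, Insr was at 0.11 and 0.04 and Pdpk1 at 0.017 and −0.17. Pik3cd was at −0.084 and −0.045, and Prr5 at 3.36 and 2.62 (SE 1.82 and 1.55). Irs1 was at −1.11 with the macrophage covariate.

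Of 14 brakes of AKT other than Trib3, 4 were higher and 1 lower (median 0.061), where 12.1% and 8.06% of all genes tested were. Grb10, an adaptor that holds back the insulin receptor, was at 250, 240, 223 and 223 CPM in TG and at 133, 108, 115 and 103 CPM in WT, a rise of 1.03 on the log2 scale (SE 0.092, adjusted p = 2.26e-06). Pik3ip1, an inhibitor of phosphoinositide 3-kinase, rose from 22.5 ± 1.74 to 42.8 ± 2.87 CPM (SD, n = 4 each; 0.92, adjusted p = 2.06e-05). The lipid phosphatase genes went both ways, with Inpp4b at 1.24 and Inpp5d at 1.13, while Inpp4a fell by 0.70 (adjusted p = 0.000163). The phosphatases of AKT itself, Phlpp1 (−0.04) and Phlpp2 (−0.23), were not called. With the macrophage covariate Grb10 remained called (0.90, adjusted p = 0.023), in the fit with vascular and stromal markers it missed the threshold (0.88, adjusted p = 0.0523), and no other of the 14 was called in either fit. Of all 20509 genes tested, 299 were called with the macrophage and 315 with the vascular and stromal covariate. At an unadjusted p under 0.05 there were 4 of the 14 with the macrophage and 3 with the vascular and stromal covariate. Pik3ip1 was then at 0.75 and 0.72, Inpp4a at −0.54 and −0.66, Inpp4b at 1.02 and 0.38 and Inpp5d at 0.35 and 0.16.

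Among 14 substrates of AKT, 1 was higher and 3 lower (median −0.068), where 12.1% and 8.06% of all genes tested were. Pfkfb2, which sets the level of fructose-2,6-bisphosphate, was at 43.3, 55.4, 52.9 and 62.1 CPM in TG and at 100.5, 127.3, 117.7 and 116.9 CPM in WT, a fall of 1.11 on the log2 scale (adjusted p = 6.27e-06), and it stayed called with either covariate (−0.94 and −0.98). The GTPase-activating proteins Tbc1d1 and Tbc1d4 moved apart, at −0.50 (adjusted p = 0.00114) and 0.50 (adjusted p = 0.0179), and Tsc1, a brake of mTORC1, fell by 0.34. The call of Tbc1d4 was lost without TG 3 (0.40) or WT 1 (0.39). Tbc1d4 (0.38 and 0.47) and Tsc1 (−0.32 and −0.21) were not called with the vascular and stromal or the macrophage covariate, and Tbc1d1 not with the former (−0.60, adjusted p = 0.18). Without TG 2 and 3, Tsc1 (−0.31) and Tbc1d4 (0.43) were not called. Gsk3a (−0.08), Gsk3b (0.01), Foxo1 (−0.34), Foxo3 (0.14) and Foxo4 (0.28) were not called. Of these, Foxo1 and Foxo4 had an unadjusted p under 0.05 (adjusted p = 0.0768 and 0.0741, edgeR). Of 12 tested FOXO target genes (Igfbp1 and Trim63 did not pass the filter), 5 were higher and 1 lower (median 0.34), beside the same 12.1% and 8.06% of all genes. Gadd45a, a stress and growth arrest gene, rose by 1.24 and Cat, which encodes catalase, by 1.36, followed by Bcl6 (0.79), Pdk4 (0.66) and Fbxo32 (0.45), and Sesn3 fell by 0.27. Fbxo32 missed the threshold without TG 4 (0.33) or WT 2 (0.36), and Sesn3 without any 1 of TG 1 to 3 or WT 1 to 4 (−0.22 to −0.31), with no filter (−0.29) or with the acinar covariate (−0.25). With the vascular and stromal covariate Gadd45a alone of the 12 was called (adjusted p = 0.00842), and with the macrophage covariate 0 were (3 at an unadjusted p under 0.05). These fits called 315 and 299 of all 20509 genes tested.

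Genes driven by the MEK-ERK pathway, which Tribbles proteins touch through MEK1, counted 5 of 16 higher and 0 lower (median 0.31). Of all genes tested, 12.1% were higher and 8.06% lower. Dusp6, a phosphatase of ERK, was at 51.8, 45.7, 50.4 and 43.2 CPM in TG and at 24.5, 18.3, 24.0 and 15.8 CPM in WT (log2 fold change 1.21, adjusted p = 2.39e-05). Etv5 (1.54), Ier3 (1.29), Spry1 (1.17) and Spred1 (0.90) rose too, whereas Fos (0.42), Egr1 (0.0044) and Ccnd1 (−0.14) were not called. Spry1 lost its call without any single library but WT 3 (0.99 to 1.24), and with the acinar covariate (1.01). With either covariate 0 of the 16 were called (4 and 3 at an unadjusted p under 0.05), where 315 and 299 of all 20509 genes tested were. The log2 fold change of Etv5 was then 1.67 and 1.51 while that of Spry1 was −0.51 and 0.20. Without TG 2 and 3, the libraries with the highest macrophage sums, 3 of the MEK-ERK genes were higher, as were 3 of the FOXO targets, 1 of the COP1 and C/EBP genes, 0 of the AKT activators and 17 of the ATF4 and CHOP targets. In that fit 1267 of 22534 genes tested were called higher.

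Profiles were compared after centring, and that of Trib3 is mostly the gap between the groups, so genes near it had to differ by a like amount. Among 11292 other named genes whose mean reached 5 CPM, the nearest over the 8 libraries were G0s2, an inhibitor of fat breakdown, Cth, an enzyme of cysteine synthesis, Bcat1, a transaminase of branched-chain amino acids, Cyb5r2, a cytochrome b5 reductase, and P2rx3, an ATP-gated channel. The root mean square differences were 0.25, 0.31, 0.32, 0.35 and 0.41 on the log2 scale, wider than for the nearest neighbours of Trib1 and Trib2. Their log2 fold changes were 5.21, 5.21, 6.09, 6.16 and 6.02. Cth, Bcat1, Cyb5r2 and P2rx3 lay under 5 CPM in WT and passed the limit on the mean through TG. The list is a description and supports nothing.

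**Figure D5:**
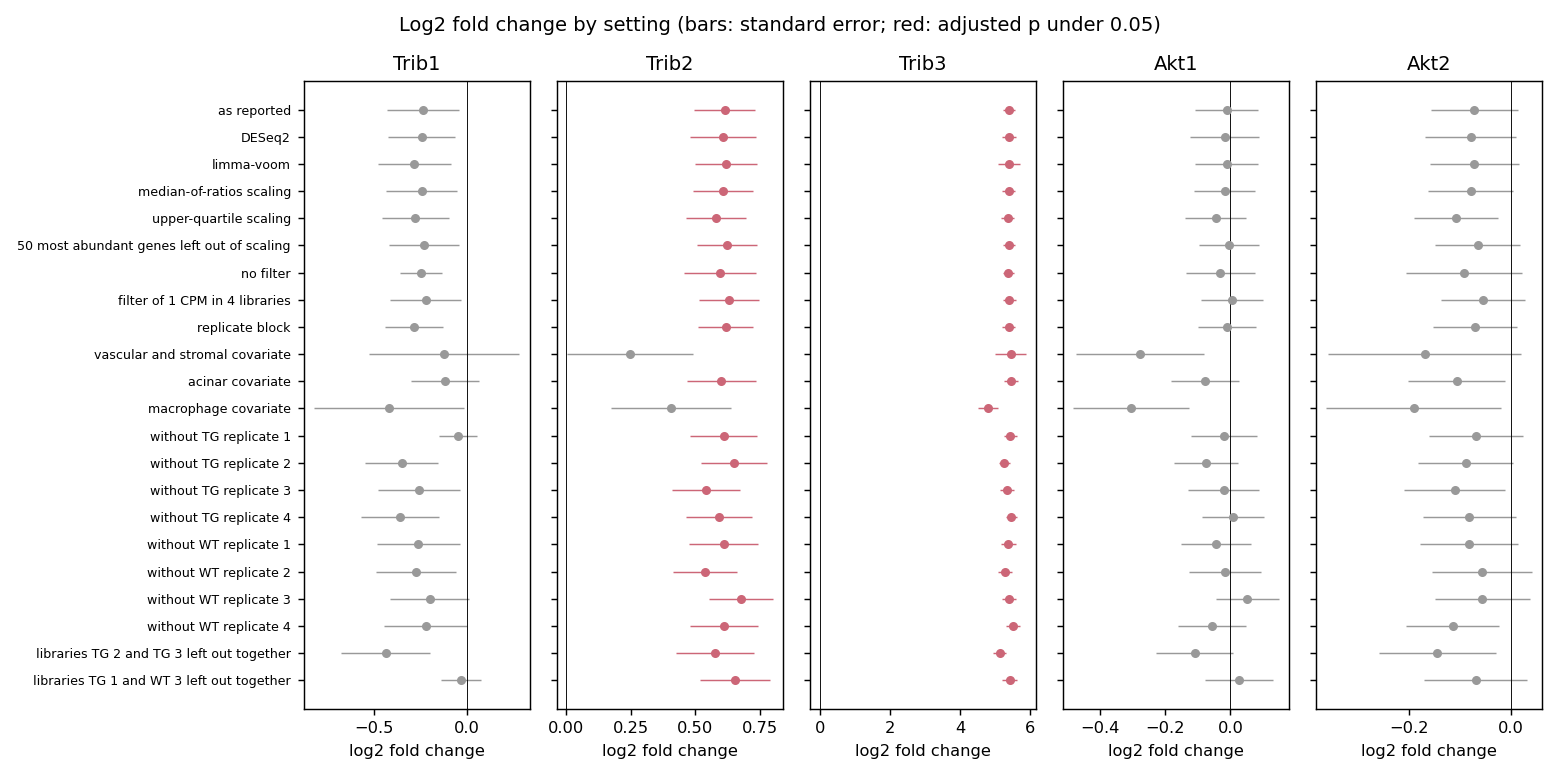
Log2 fold change of each of the 5 genes, with its standard error, as reported and in 21 alternative settings, in red where the adjusted p is under 0.05. Trib3 lies between 4.79 and 5.50 and is called throughout, Trib2 loses its call with the vascular and stromal and the macrophage covariates, and Trib1, Akt1 and Akt2 are called in none.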

How the data were processed

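RNA from islets was sequenced in 8 libraries, each with its own table of raw read counts per Ensembl mouse gene, deposited by the authors without normalization. Per the submitters' processing notes, STAR 2.7.10a, HTSeq 0.11.3 and the build mm39 were used, and a strand setting is not given in these sources. Reads that matched no counted feature (25.3% to 31.5% of each table) and ambiguous reads (3.74% to 4.36%) were left out. Groups and replicate numbers came from the sample titles. Of 55414 identifiers, 52081 matched a symbol, and where symbols repeated the identifier with most counts kept it (68 others did not). Genes passing edgeR's filterByExpr (minimum count 10) were scaled by TMM and compared with the robust quasi-likelihood test of edgeR 4.0.16 in R 4.3.3, group as the only term, Benjamini-Hochberg adjustment over 20509 genes, called under 0.05. Intervals come from the fit's standard error. Ratios used a pseudocount of 0.5 counts, and profiles log2(CPM + 0.5) centred per gene. An exact 97.1% interval is the range of shifts the permutation test does not reject. A count of 0 would allow up to 3 counts, 0.133 to 0.182 CPM by library. Covariates were mean log2 CPM of the marker lists, endothelial and mural together for the vascular and stromal one. The fit was tested on simulated counts. In GENCODE M21 no other gene shares exon bases with the 5 genes.

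The members, the lists, the tests and the alternatives were chosen with earlier results of these data known, and leaving out TG 2 and 3 or TG 1 and WT 3 together was added after the marker sums had been seen. Named are the 5 genes, Stk40, Cop1 and Atf4, per list up to 4 called genes with the lowest adjusted p and all of a direction with 5 or fewer, and the 5 (Trib3) or 3 (Trib1, Trib2) nearest profiles among genes with at least 5 CPM, without clone-based or pseudogene symbols. Genes named beyond this rule, with their values or as not called, were picked after the values were seen, and some genes of the rule and lists are not reported here by name. Marker lists with results not given elsewhere were alpha (0 of 5 called), delta (0 of 3), acinar (0 of 9 tested), duct (4 of 6 higher), lymphocyte (2 of 5 higher) and Schwann (1 of 4 higher). Alternatives were DESeq2 1.42.0, limma-voom (limma 3.58.1), other scalings, filters, covariates, a replicate block and each library left out. Figures used matplotlib 3.10.9.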

Additional observations from a re-analysis of the deposited data

Results flagged for a closer look

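Of 114 groups of 4 values examined, 5 had a library set apart by a gap wide against the range of its group, a share that chance alone gives in about 1 of 20 groups. Stk40 was at 20.2 CPM in TG replicate 1, below the 22.9 to 23.3 CPM of the other TG libraries. Eif4ebp1 was at 122 CPM in TG replicate 2, above 107 to 109 CPM. In WT replicate 3 Irs1 was at 25.2 CPM (others 17.1 to 18.5) and Spry1 at 17.4 CPM (others 5.67 to 7.15). Cth was at 1.34 CPM in WT replicate 4, with the next lowest at 1.47 CPM.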

How the results depend on the processing

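Trib3 (4.79 to 5.50), Trib1 (−0.44 to −0.031), Akt1 (−0.30 to 0.052) and Akt2 (−0.19 to −0.055) stayed on their side of the threshold in all 21 settings. Trib2 lost its call with the vascular and stromal (0.25) and the macrophage (0.41) covariate and held it in the other 19. The number of genes called, 4129, was 315 with the vascular and stromal covariate, 299 with the macrophage covariate and 2254 without TG 2 and 3, and 2864 to 4404 without single libraries. Without 1 library the differences between genes were 5.44 to 5.87 (Trib3 against Trib1), 4.59 to 4.86 (Trib3 against Trib2) and −1.06 to −0.66 (Trib1 against Trib2), and leaving out a WT library gave adjusted exact p-values of 0.0571 to 0.0762, the exact p of Trib1 against Trib2 being 0.0571 and those of the other 2 differences 0.0286; the values then were 5.57 to 5.75, 4.69 to 4.86 and −0.93 to −0.87. Replicate numbers are shared by the groups. Deviations of same-numbered libraries correlated at 0.022 to 0.12, and 2 of 4 TG libraries correlated best with their own number. These weak values cannot settle whether the numbers pair the samples. A replicate block called 4673 genes, and with the block as an exact sign-flip test the 3 differences (5.65, 4.74 and −0.91) had adjusted p = 0.167, since 4 pairs cannot pass. Signs of called genes turned, without a call, for Cebpa (−0.23), Pdpk1 (0.017), Pik3cd (−0.084), Bcl6 (−0.024) and Spry1 (−0.51) with the vascular and stromal covariate and for Pik3cd (−0.045) with the macrophage covariate; the cause was not tested. The acinar covariate ended the calls of Cebpa, Pdpk1, Pik3cd, Sesn3 and Spry1, and no filter those of Pik3cd and Sesn3. At 32 to 42 reads, Trib3 in WT is the member least precisely counted.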

Other observations

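The other motifs searched in the 300-base RefSeq windows, on both strands, were the cyclic AMP response element TGACGTCA, held by 2.03% of all genes with a window, and the FOXO core GTAAACA, held by 4.05%. None of the windows of Trib2, Trib3, Akt1 and Akt2 held TGACGTCA. Akt1 held GTAAACA in 1 of its windows, chr12:112674835-112675134 on the minus strand, and Trib2, Trib3 and Akt2 in none. Among the FOXO target genes 3 of 13 with a window held it (Bcl2l11, Sesn1 and Trim63), of which Bcl2l11 and Sesn1 were not called and Trim63 was too low to be tested.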
